A study of Rattus norvegicus with 12 samples.

Results

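The genes of the mitochondrial respiratory chain, of the ATP synthase and of the factors that assemble them were followed in rat cerebellar cultures exposed to acetamiprid (ACE), a neonicotinoid insecticide. Members were the gene probes whose name on the array began with Nduf, Sdha to Sdhd, Sdhaf, Uqcr, Uqcc, Cox4 to Cox8, Cox10 to Cox19 or Atp5. This gave 101 of 26214 gene names, with 126 of 30367 probes. They fell into 7 classes: complex I subunits (49 probes), complex I assembly factors (11), complex II (5), complex III (11), complex IV subunits (19), complex IV assembly (9) and complex V (22). Of the 126 probes, 125 passed the filter on low signal. The probe of Cox8c, a testis form of a complex IV subunit, did not, and it was not well above background on any array (0 of 12).

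The cultures came from the cerebellum of Sprague-Dawley rats at postnatal day 1 and were enriched for neurons, with glia still present. Control cultures received the solvent alone (0.001% DMSO) and ACE cultures 1 µM acetamiprid in the same solvent, from day 2 to day 16 in vitro (DIV). There were 6 arrays per group, and each replicate number stood for an independent culture from 1 lot of pooled neonates that was divided between the groups, so that control versus ACE (CvA) was compared in 6 pairs. A whole culture was measured, so fewer cells of a type and less RNA per cell cannot be told apart.

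Electrons from NADH enter the chain at complex I and those from succinate at complex II. They pass through coenzyme Q to complex III and by cytochrome c to complex IV, which reduces oxygen, and the proton gradient that the complexes build drives complex V, the ATP synthase. Most subunits are encoded in the nucleus, many are needed in every cell, and some subunits of complex IV have tissue forms made in muscle, lung or testis.

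All values are log2 intensities after quantile normalisation, and differences are ACE minus control on that scale. The 75th percentile of the raw signal was 1803 to 4384 intensity units over the 12 arrays, and 75.4 to 91.0% of gene spots were well above background. Among the members tested, 123 of 125 were well above background on all 12 arrays. The number of arrays limits the precision, and the standard error (SE) of a member's difference was 0.021 to 0.63, with a median of 0.030. On every slide the control array was at place 1 and that of ACE at place 3, so place and exposure cannot be told apart.

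The probes shown first are those on which the largest difference past the unadjusted threshold, the difference with the lowest p-value among the assembly factors of complex IV, and a disagreement inside a gene rest. Each is a 60-base oligonucleotide of the array, 5′ to 3′, with its position in the rn4 build. The Ndufaf2 probe (chromosome 2, 39269414 to 39269445, minus strand; the listed span holds 32 bases) had a GC content of 28.3%. The Cox14 probe (chromosome 7, 138468685 to 138468744, plus strand) had 55% GC. The Uqcr11 probes (chromosome 7, 10819576 to 10819635 and 10819606 to 10819665, plus strand) overlap by 30 bases, given in capitals. Outside the overlap their GC content was 66.7% and 73.3%.
Ndufaf2 A_43_P22034: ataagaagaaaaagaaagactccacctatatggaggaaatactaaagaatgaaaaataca
Cox14 A_64_P115121: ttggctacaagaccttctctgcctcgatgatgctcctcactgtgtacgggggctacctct
Uqcr11 A_64_P117688: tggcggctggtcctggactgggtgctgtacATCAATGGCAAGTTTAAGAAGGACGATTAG
Uqcr11 A_64_P057590: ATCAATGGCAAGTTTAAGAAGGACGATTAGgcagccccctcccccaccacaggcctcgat

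Differences between ACE and control were small across the chain. The members had a median difference of -0.013, against -0.0050 for the 23796 probes tested, and 115 of 125 members differed by less than 0.1. The mean difference lay below 0 in 72 of 125 members (57.6%, against 52.2% of all probes) and reached 1.5-fold in 2, Ndufaf2 and Cox8b (1.60%, against 1.72% of all probes). No member passed the adjusted threshold of 0.05 in limma with Benjamini-Hochberg adjustment (0 of 125, and 0% of all probes), and the lowest adjusted p of a member was 0.147. At an unadjusted limma threshold of 0.05, 16 members were called (12.8%, against 16.6% of all probes). Of these, 2 were higher in ACE (1.60%, against 6.90% of all probes) and 14 were lower (11.2%, against 9.73% of all probes). The share lower was thus near the share over the array, and the share higher was below it. The same direction in all 6 pairs, which is what an exact signed-rank test needs for its smallest p of 0.03125, was seen in 15 of 125 members, against 11.6% of all probes, 3 of them higher in ACE (2.40%, against 4.72% of all probes) and 12 lower (9.60%, against 6.86%). Control and ACE arrays did not separate for any member (0 of 125, and 0.0126% of all probes).

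These unadjusted counts depended on single cultures. The number lower was 5 without replicate 2 (against 6.93% of all probes), 5 without replicate 4 (7.81%), 7 without replicate 6 (7.54%) and 9 without replicate 5 (7.45%), so the share over all probes was also below 9.73% in these 4 fits. The number higher was 5 without replicate 1 (against 6.98% of all probes), and 1 without replicate 2, 4, 5 or 6 (4.88 to 6.15%). Ndufaf2, Ndufaf6, Cox4i2, Cox6b2, Cox14 and the Cox7a2 probe described below kept their call whichever of the 6 replicates was left out. The other 10 called members did not. Each of these fits reuses 5 of the 6 pairs behind the call. The share of all called probes that kept their call is not given here, so this number cannot be set against the array.

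**Figure D1:**
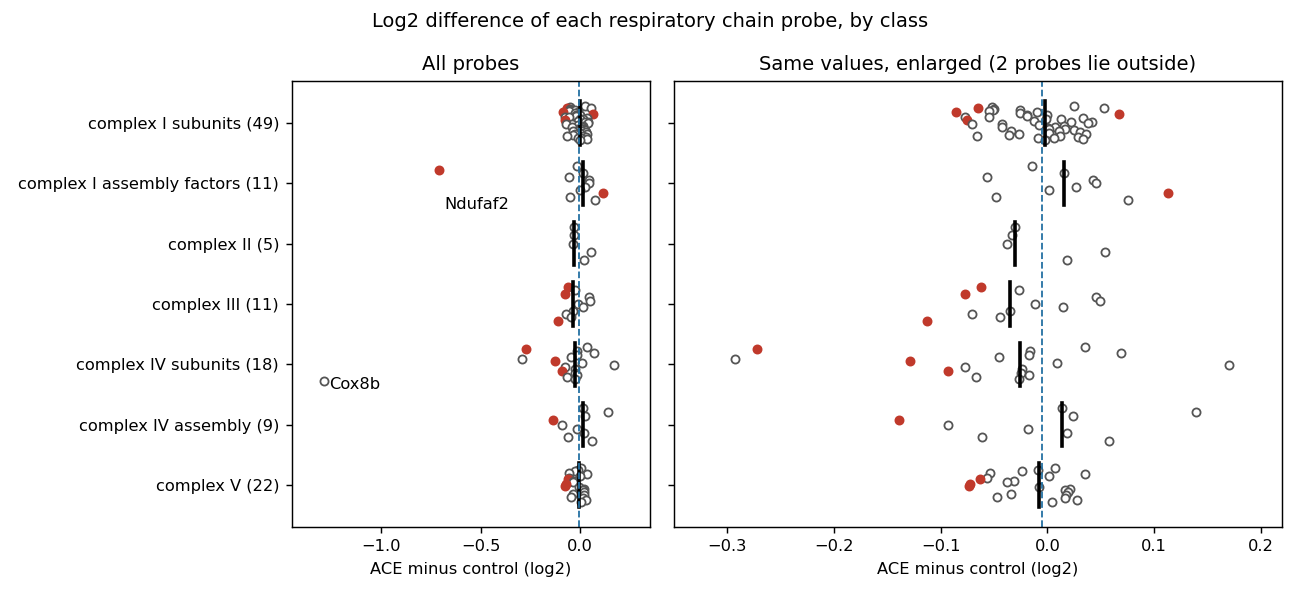
Each point is 1 of 125 probes; the horizontal axis is ACE minus control in log2 units and the rows are the 7 classes with their number of probes. Filled red points passed an unadjusted limma p of 0.05, black bars are class medians and the dashed line is the median of all probes tested (-0.0050); all class medians lie within 0.04 of 0, and Cox8b (-1.29) and Ndufaf2 (-0.71) lie outside the enlarged panel.

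Replicates differed from each other more than ACE differed from control. Each replicate had its own slide, and replicates 1, 2 and 3 were each scanned in a batch of their own. Culture, slide and scan batch can therefore not be told apart in this spread. The standard deviation over the 6 replicates, taken on the mean of each pair, was 0.040 to 1.09 between members with a median of 0.15, and it exceeded the size of the ACE difference in 120 of 125 members. The median over all probes tested was 0.29. Cox7c, a small subunit of complex IV, had the largest replicate spread at its probe of 23.3% GC: its control arrays ran from 9.77 through a median of 10.73 to 12.66 and its ACE arrays from 9.50 through 10.92 to 12.49. Replicate 1 was highest and replicate 3 lowest in both groups, and the ACE difference was -0.067 ± 0.081 (SE, n = 6 pairs).

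The subunits of complex I oxidise NADH and carry its electrons to coenzyme Q. Over 49 probes the median difference was -0.0019, with a range of -0.086 to 0.067. Among the core subunits, Ndufv1, which binds NADH, differed by 0.029 ± 0.031 (SE) and Ndufs1, the large iron-sulphur subunit, by 0.017 ± 0.038, each higher in 3 of 6 pairs. The iron-sulphur subunit Ndufs8 differed by -0.066 ± 0.042 (lower in 4 of 6 pairs) and did not pass the unadjusted threshold. Of the 49 probes 1 was higher at the unadjusted threshold and 3 were lower, against 6.90% and 9.73% of all probes. Ndufa5, an accessory subunit, was the higher one at 0.067 ± 0.027 (5 of 6 pairs, limma adjusted p = 0.296). Ndufa2 was lower by -0.086 ± 0.035 (5 of 6 pairs, limma adjusted p = 0.290) and Ndufb10 by -0.075 ± 0.029 at 1 of its probes (6 of 6 pairs, limma adjusted p = 0.280), while the other Ndufb10 probe differed by -0.0015. The third was a probe of Ndufa10l1, a copy of Ndufa10 whose signal may be shared with it: it differed by -0.065 and the other Ndufa10l1 probe by 0.053.

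The assembly factors of complex I help to build the enzyme and are not part of it when finished. Of the 11 probes 1 was higher at the unadjusted threshold, Ndufaf6, and 1 was lower, Ndufaf2, against 6.90% and 9.73% of all probes. Ndufaf2, a factor that binds a late assembly intermediate, had control arrays from 3.05 through a median of 4.80 to 5.66 and ACE arrays from 2.48 through 4.10 to 4.66. The arrays of replicates 1 and 2 were lowest in both groups, and the groups overlapped although each pair was lower in ACE. The pair differences ran from -1.71 in replicate 3 to -0.10 in replicate 4, with a mean of -0.71 ± 0.19 (SE, n = 6; limma adjusted p = 0.189). Without replicate 3 the mean was -0.51. The probe was dim: 4 of 6 control arrays and 4 of 6 ACE arrays were well above background, and with normexp background correction the difference was -0.21. The study lists this gene for this exposure from these arrays, so its direction is no independent evidence.

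Ndufaf6, a factor needed for early complex I assembly, had control arrays from 10.85 through 11.12 to 12.06 and ACE arrays from 10.93 through 11.27 to 12.18. Replicate 3 was highest in both groups and the groups overlapped, but each ACE array lay above its control, by 0.0046 in replicate 4 and by 0.10 to 0.17 in the other 5. The mean difference was 0.11 ± 0.029 (SE, n = 6; limma adjusted p = 0.180). The 11 probes of the class had a median of 0.016, and 4 of them lay below 0. With the adjustment for probe GC content, described below, the class median was -0.0037.

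Complex II is the succinate dehydrogenase of the citric acid cycle. None of its 5 probes passed the unadjusted threshold (0 in either direction), against 6.90% of all probes higher and 9.73% lower. The catalytic subunit Sdha differed by -0.030 ± 0.024 (SE), the iron-sulphur subunit Sdhb by -0.038 ± 0.028 and the assembly factor Sdhaf2 by -0.033 ± 0.026. The membrane anchors Sdhc and Sdhd had differences of 0.053 ± 0.037 and 0.019 ± 0.021, each higher in 5 of 6 pairs.

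Complex III passes electrons from coenzyme Q to cytochrome c. Its 11 probes had the lowest class median, -0.035, and 8 of them lay below 0. After the adjustment for probe GC content described below, the median was -0.017, and those of complex IV subunits (-0.044) and complex II (-0.024) were lower. The core proteins Uqcrc1 (0.015 ± 0.044, SE) and Uqcrc2 (-0.035 ± 0.038) did not pass the unadjusted threshold, nor did the Rieske iron-sulphur protein Uqcrfs1 (-0.070 ± 0.031, lower in 5 of 6 pairs, limma adjusted p = 0.317). Uqcrq was lower by -0.11 ± 0.045 (6 of 6 pairs, limma adjusted p = 0.288), by -0.32 in replicate 5 and by -0.15 to -0.023 in the other 5. Without replicate 5 the mean was -0.070. Its control arrays ran from 7.73 through 8.03 to 9.32 and its ACE arrays from 7.71 through 7.86 to 9.27, and replicate 1 stood above the others in both groups. Of the overlapping Uqcr11 probes shown above, the downstream one differed by -0.077 ± 0.026 (6 of 6 pairs, limma adjusted p = 0.234) and the upstream one by 0.046 ± 0.029 (higher in 4 of 6 pairs). These probes share 30 of 60 bases. The remaining Uqcr11 probe differed by -0.027. The assembly factor Uqcc was the third of 11 probes lower at the unadjusted threshold, against 9.73% of all probes, and none was higher.

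In complex IV, 14 of 18 subunit probes lay below 0 and the class median was -0.026. Cox4i2, the lung form of the regulatory subunit 4, gave the lowest p-value of all members. Its control arrays ran from 10.29 through a median of 11.09 to 12.22 and its ACE arrays from 10.05 through 10.73 to 12.22. Replicate 1 was highest and replicate 3 lowest in both groups, so the groups overlapped. The difference was -0.00050 in replicate 1 and -0.39 to -0.24 in the other 5, with a mean of -0.27 ± 0.057 (SE, n = 6; limma adjusted p = 0.147). The common form, Cox4i1, differed by 0.035 ± 0.025 and was higher in 5 of 6 pairs.

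Cox6b2, the testis form of subunit 6b, showed a similar order of cultures. Its control arrays ran from 11.97 through 12.75 to 13.92 and its ACE arrays from 11.81 through 12.63 to 13.85, with replicate 1 highest and replicate 3 lowest. Each pair was lower in ACE, by a mean of -0.13 ± 0.035 (SE, n = 6; limma adjusted p = 0.188). Cox7a2, the common form of subunit 7a, was lower at its probe of 51.7% GC (-0.093 ± 0.027, 6 of 6 pairs, limma adjusted p = 0.199) and differed by -0.024 ± 0.032 at its probe of 35% GC. Cox5a (0.069 ± 0.031) and Cox7a2l (-0.025 ± 0.024) did not pass the unadjusted threshold.

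Among the assembly factors of complex IV, Cox14, which helps the synthesis of the subunit COX1, had control arrays from 13.80 through 13.90 to 14.03 and ACE arrays from 13.65 through 13.76 to 13.92. The pair difference was -0.19 to -0.15 in 5 replicates and -0.0015 in replicate 3, and the groups overlapped. The mean difference was -0.14 ± 0.032 (SE, n = 6; limma adjusted p = 0.159). None of the other 8 probes of the class passed the unadjusted threshold, against 6.90% of all probes higher and 9.73% lower, and the class median was 0.014.

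**Figure D2:**
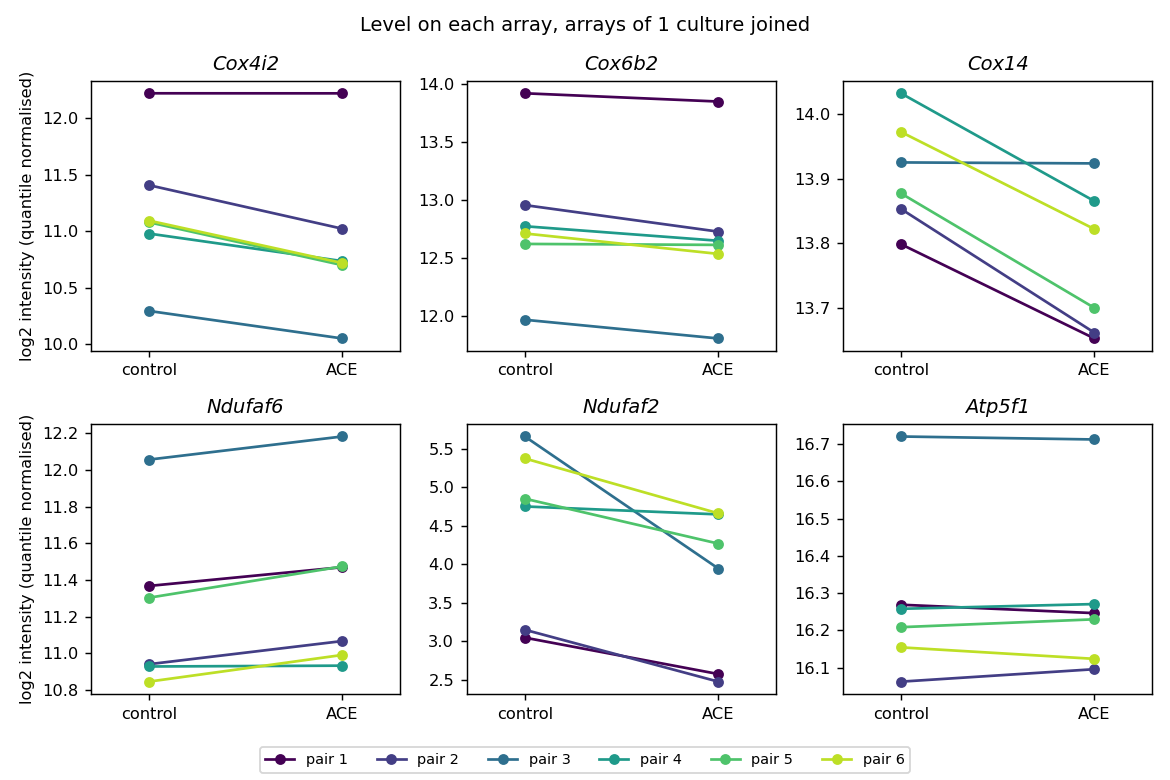
Log2 intensity (vertical axes, a different range in each panel) of 6 genes on the control and ACE array of each culture, joined by lines and coloured by pair. The ACE array lies below its control in all 6 pairs for Cox4i2 (a difference of -0.00050 in pair 1), Cox6b2, Cox14 (-0.0015 in pair 3) and Ndufaf2 and above it for Ndufaf6, while the pairs of Atp5f1 (mean difference 0.0010) go either way.

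Complex V makes ATP. Atp5a1 and Atp5b, now called Atp5f1a and Atp5f1b, which form its catalytic head, differed by 0.0066 ± 0.026 and -0.0086 ± 0.050 (SE). Atp5f1, now Atp5pb, a stalk subunit that the study used as a control gene in its PCR, differed by 0.0010 ± 0.022 and by -0.031 to 0.033 in single pairs. Replicate 3 stood above the other cultures at 16.72 in control and 16.71 in ACE. No probe of the class was higher at the unadjusted threshold and 3 of 22 were lower, against 6.90% and 9.73% of all probes: Atp5h, a stalk subunit, by -0.074 ± 0.029, and the c-ring genes Atp5g3 by -0.072 ± 0.025 and Atp5g2 by -0.063 at 1 probe each. The other probes of Atp5g3 and Atp5g2 differed by -0.038 and -0.031.

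**Figure D3:**
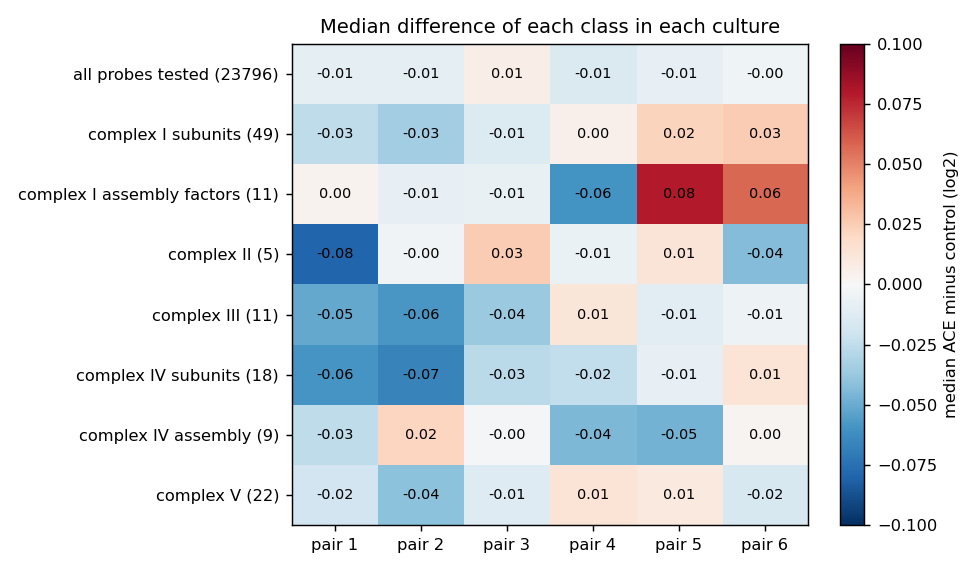
Median ACE minus control (log2, colour and printed value) of all probes tested and of the 7 classes, with the number of probes, in each of the 6 cultures. Complex III and complex IV subunits have their lowest values in pairs 1 and 2 (-0.05 to -0.07) and lie within 0.02 of 0 in pairs 5 and 6.

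The sign of the median changed between cultures. The median of all members was -0.028 in replicate 1, -0.038 in replicate 2, -0.016 in replicate 3, -0.0033 in replicate 4, 0.015 in replicate 5 and 0.0037 in replicate 6. Restricted to replicates 4 to 6, which were scanned together, 1 of 125 members was higher (against 5.71% of all probes) and 4 were lower (against 8.19%) at the unadjusted limma threshold, and the median of the members was 0.0056. Cox4i2 (-0.33) and Cox14 (-0.16) were lower in that batch. Both were lower in all 6 pairs, 3 of which form the batch, so this is no separate evidence. The batches of replicates 1, 2 and 3 held a single pair each.

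The striated muscle forms of complex IV include Cox8b, whose arrays spanned the widest range of all members (4.21). Cox8b is the heart and skeletal muscle form of subunit 8 and Cox6a2 that of subunit 6a. Control arrays of Cox8b read 9.62, 10.46, 8.18, 6.95 and 7.83 in replicates 1, 2, 3, 4 and 6. The control spot of replicate 5 was marked as an outlier and left out, so the fit used 5 pairs. ACE arrays read 8.38, 6.57, 8.17, 7.24, 9.08 and 6.25 in replicates 1 to 6. The groups overlapped, and ACE was lower in 4 of 5 pairs, by -1.25, -3.89, -0.0091 and -1.58 in replicates 1, 2, 3 and 6 and higher by 0.29 in replicate 4. The mean was -1.29 ± 0.63 (SE, n = 5; limma adjusted p = 0.371), and -0.64 without replicate 2. Cox8b did not pass the unadjusted limma threshold in this fit, but passed it with the replicate as a random block. Cox6a2 differed by -0.29 ± 0.17 (SE, n = 6; limma adjusted p = 0.418), most in replicates 1 (-0.65) and 2 (-1.03), and by -0.14 without replicate 2. In replicates 4 to 6 alone it differed by 0.019. The forms used outside muscle were Cox8a (-0.027 ± 0.022) and Cox6a1 (-0.046 ± 0.030).

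The skeletal muscle list, which holds neither gene, differed between arrays too. Of its 44 probes tested, 43 lay below 0, with a median of -0.57, and 10 were lower and 1 higher at the unadjusted limma threshold, against 9.73% and 6.90% of all probes. Its mean level over probes was 7.06 to 10.08 in control and 6.94 to 8.84 in ACE. It was highest in control 2 (10.08), control 1 (9.45), ACE 1 (8.84) and control 6 (8.11). Its pair difference was -0.62 in replicate 1, -2.60 in replicate 2 and -1.17 in replicate 6, the replicates in which Cox8b was also much lower, and -0.19 to 0.0067 in the other 3. The genes and the list did not match on every array: ACE 5 held the highest ACE value of Cox8b (9.08) but a list mean of 7.11, and Cox6a2 differed by -0.13 in replicate 6 and by 0.22 in replicate 5. The part of the list in the Cox8b and Cox6a2 values was not tested.

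**Figure D4:**
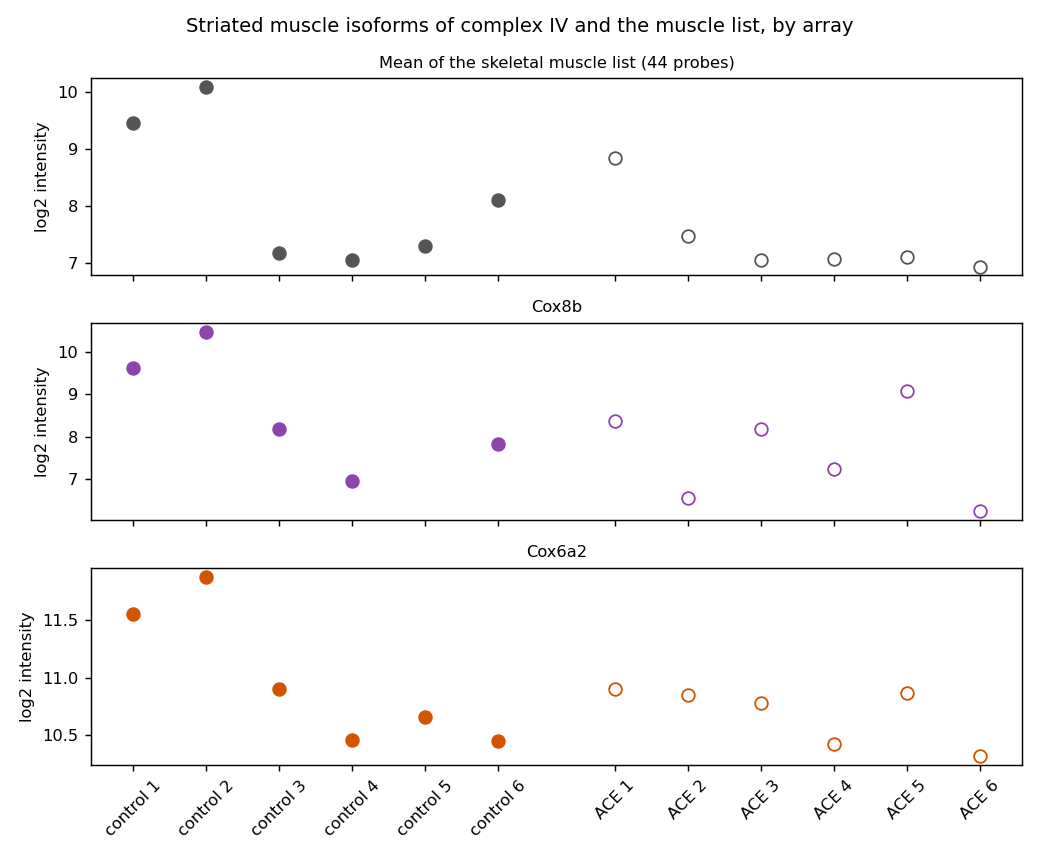
Log2 intensity (vertical axes) of the skeletal muscle list (mean of 44 probes), Cox8b and Cox6a2 on each of the 12 arrays; filled points are control, open points ACE, and the missing Cox8b point of control 5 was an outlier spot. Control 1 and control 2 are the highest arrays of control in all 3 panels.

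Promoter windows are shown for the muscle forms and for Cox8a, the common form of subunit 8. The windows cover 250 bases before the start of transcription in RefSeq (GRCr8). Motifs were searched on both strands: the ETS core bound by GABPA (CCGGAAG), the core of the NRF1 motif (TGCGCA), the E-box of myogenic factors (CAGCTG), the MEF2 motif and TATAAA. Capitals mark any match, and overlapping matches are joined. Cox8a (chromosome 1, 213833624 to 213833873, minus strand) held 2 ETS cores. Cox6a2 (chromosome 1, 192219717 to 192219966, minus strand) held 1 E-box and 1 MEF2 motif. Cox8b (chromosome 1, 205408274 to 205408523, minus strand) held 2 E-boxes and 1 TATAAA. The window of the common form Cox4i1, not printed, held 1 E-box and no ETS core.
Cox8a: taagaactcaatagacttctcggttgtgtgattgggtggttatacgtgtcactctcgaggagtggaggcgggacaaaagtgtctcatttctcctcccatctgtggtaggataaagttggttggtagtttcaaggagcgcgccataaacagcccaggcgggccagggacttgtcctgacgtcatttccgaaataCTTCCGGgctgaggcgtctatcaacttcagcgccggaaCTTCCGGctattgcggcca
Cox6a2: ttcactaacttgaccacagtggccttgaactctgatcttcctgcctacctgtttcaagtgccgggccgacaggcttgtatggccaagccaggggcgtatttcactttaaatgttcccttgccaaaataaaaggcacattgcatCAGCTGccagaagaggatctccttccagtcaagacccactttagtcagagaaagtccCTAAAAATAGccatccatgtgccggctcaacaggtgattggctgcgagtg
Cox8b: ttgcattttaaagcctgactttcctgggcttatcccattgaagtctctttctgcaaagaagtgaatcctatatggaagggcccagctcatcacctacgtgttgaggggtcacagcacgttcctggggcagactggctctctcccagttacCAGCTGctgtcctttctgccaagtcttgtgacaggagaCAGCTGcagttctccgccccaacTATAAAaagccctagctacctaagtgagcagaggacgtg

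A window was found for 86 of the 100 member genes with a RefSeq match. The ETS core stood in 26 of the 86 (30.2%, against 7.74% of 27457 promoters) and the NRF1 core in 22 (25.6%, against 6.57%). This NRF1 core was chosen after the shares of a longer form of the motif had been seen. The E-box stood in 10 (11.6%, against 11.9%), TATAAA in 5 of 86, against 3593 of 27457, and the MEF2 motif in 1 (1.16%, against 3.07%), that of Cox6a2. The median GC content was 56.8% in the member windows and 52.0% in all. A match describes these letters only.

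Probe GC content moved with the ACE difference over the whole array. Among all probes tested the median difference was 0.031 at up to 35% GC, 0.018 at over 35 to 40%, -0.0048 at over 40 to 45%, -0.022 at over 45 to 50% and -0.049 at over 50 to 55%. Member medians descended in the same order, from 0.017 over 20 probes at up to 35% to -0.054 over 22 probes at over 50 to 55%. Spearman's rho between GC content and difference was -0.41 over the 125 members and -0.30 over all 23796 probes, which share arrays and are not independent. Over these 5 ranges the medians of all probes descended in replicates 2, 4, 5 and 6. In replicates 1 and 3 the medians of these 5 ranges lay between -0.017 and 0.011. Above 55% GC, where no member lay, the 462 probes had a median of -0.15, and it was below 0 in all 6 replicates, -0.058 in replicate 1 and -0.071 in replicate 3 included.

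The members lower in ACE at the unadjusted threshold leaned to high GC content. The 14 had a median of 51.7%, with Ndufaf2 lowest at 28.3%, the 2 higher members 35% and 41.7%, and the 109 others 43.3%. Of the 14, 8 were at over 50 to 55% GC, where 18.0% of all probes were lower. With each array's deviations adjusted for probe GC by a loess curve, an alternative chosen after seeing the data, 15 of 125 members were called, against 15.0% of all probes: 2 were higher (1.60%, against 6.49% of all probes) and 13 lower (10.4%, against 8.50%), none at the adjusted limma threshold (0 of 125, and 0% of all probes). The same direction in all 6 pairs was then seen in 5 of 125 members higher, against 4.12% of all probes, and in 10 lower (8.00%, against 6.09%). These were not the same probes throughout: 8 of the 14 lower and 1 of the 2 higher members kept their call. Cox4i2 (-0.24), Ndufaf2 (-0.76), Cox14 (-0.084), Uqcrq (-0.14) and Ndufaf6 (0.077) were among those kept, whereas Cox6b2 (-0.084), Uqcr11 (-0.022), Ndufb10 (-0.039), Ndufa2 (-0.031) and Ndufa5 (0.053) were not. The Uqcr11 probe that lost its call is the downstream one, and the upstream one, which overlaps it, was then called higher (0.082). The share of all called probes that kept their call after GC adjustment is not given here.

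**Figure D5:**
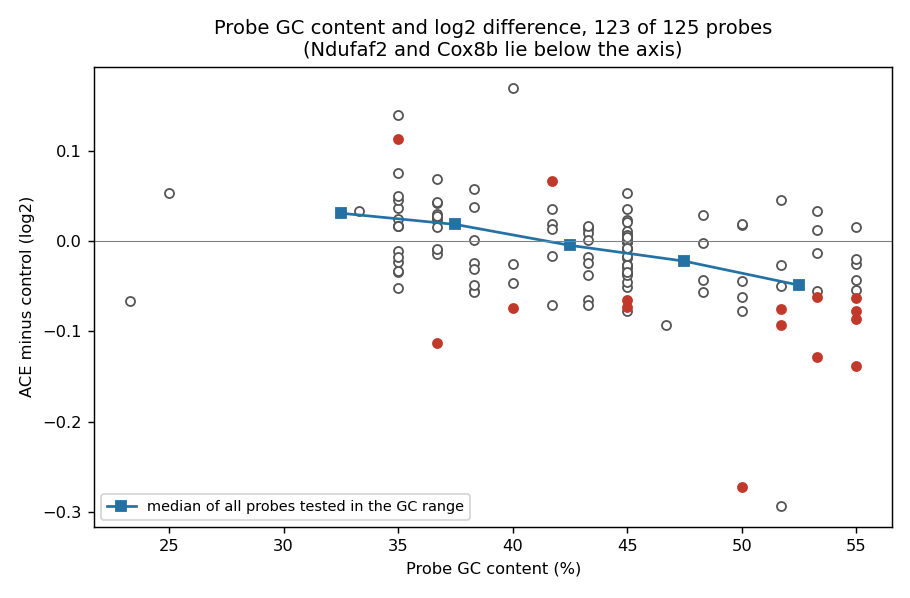
ACE minus control (log2, vertical axis) against probe GC content (%, horizontal axis) for 123 members, filled red where the unadjusted limma p was below 0.05; blue squares are medians of all probes tested in 5 ranges of GC content, drawn at fixed points in each range. The blue medians descend from 0.031 to -0.049, and 8 of the red points below 0 lie in the highest range. Ndufaf2 (-0.71 at 28.3% GC, called lower) and Cox8b (-1.29 at 55% GC, not called) lie below the axis and are not drawn.

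Probes of a gene did not always agree. Of the 20 member genes with several probes (45 probes), 11 had probes on both sides of 0, and in 6 a single probe passed the unadjusted threshold while none had all its probes past it (0 of 20). The probes of a gene lay a median of 0.064 apart. The widest was the pseudogene Cox6c-ps1 (0.17 and -0.077), whose probes may also take signal from Cox6c. Opposite signs were also found for Ndufb4 (0.038 and -0.043), Ndufs4 (-0.034 and 0.030), Ndufaf7 (-0.049 and 0.075), Uqcrb (0.049 and -0.012), Atp5j2 (0.019 and -0.034) and Atp5l (0.017 and -0.047), none of which passed the threshold at any probe. In Ndufv3 the 3 probes ran from -0.0092 to 0.034, and in Ndufaf4 the 4 probes from -0.056 to 0.045.

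The other mitochondrial lists had medians between -0.011 and 0.020, with members on both sides of 0. The list of further assembly factors and carriers (41 probes) had a median difference of -0.0016, with 1 probe higher (Dhodh, dihydroorotate dehydrogenase, 0.093) and 1 lower (a probe of Usmg5, a small ATP synthase subunit, -0.079) at the unadjusted limma threshold, against 6.90% and 9.73% of all probes. The other Usmg5 probe differed by -0.0016. The citric acid cycle (21 probes) had a median of -0.011, with 2 higher and 1 lower, a probe of Pdhx of the pyruvate dehydrogenase complex (-0.083). The other Pdhx probe differed by 0.12 (higher in 4 of 6 pairs). The biogenesis list (24 probes) had a median of 0.020, with 2 higher and 2 lower. Ppargc1b, a coactivator of respiratory genes, was higher in all 6 pairs by 0.16 ± 0.035 (SE, limma adjusted p = 0.149), and the nuclear receptor Ppard was lower in all 6 by -0.18 ± 0.043 at 1 probe (limma adjusted p = 0.166), while its other, brighter probe differed by 0.049 (higher in 4 of 6 pairs). Coenzyme Q synthesis (12 probes) had a median of 0.0061, with 2 higher (Coq2, 0.13, and Adck4, 0.11) and 3 lower (Adck3, -0.13, Pdss2, -0.098, and Coq10a, -0.088).

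Marker lists of the other cell types lay nearer to 0 than the muscle list. The median difference was 0.040 over 17 pan-neuronal probes, -0.021 over 11 granule cell probes, -0.022 over 14 Purkinje cell probes, -0.067 over 18 astrocyte probes, 0.018 over 19 oligodendrocyte probes, 0.084 over 16 microglia probes and -0.0083 over 11 endothelial and meningeal probes. Of the microglia probes 14 of 16 lay above 0, and the mean of the list differed by 0.42 in replicate 1 and by -0.054 to 0.050 in the other 5. The mean level of the astrocyte list was highest in replicate 1 in both groups (14.06 and 14.03), as were Cox4i2, Cox6b2, Uqcrq and the citric acid cycle list (12.92 and 12.91). It was lowest in replicate 6 (13.27 and 13.24), whereas these 3 genes were lowest in replicate 3, where it stood at 13.69 in both groups. Of its 18 probes, 14 lay below 0. Its part in these values was not tested.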

How the data were processed

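Per the file headers, the deposited intensities are 1-colour Agilent signals that the authors extracted with Feature Extraction (11.0.1.1 for the 2 arrays of replicate 1, 11.5.1.1 for the other 10), background subtracted and not scaled between arrays. A log2 table deposited by the authors, quantile normalised and centred per probe, was used here as an alternative (its correlation with the values below was 0.998 to 0.999 per array).

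Control spots were left out and outlier spots set to missing. The log2 intensity was quantile normalised over 12 arrays, with spots averaged per probe. Probes above the 20th percentile of their array on at least 7 of 12 arrays, with at least 4 complete pairs, were tested (23796 of 30367), with limma 3.58.1 in R 4.3.3 (lmFit and eBayes, two-sided), the replicate as a block and Benjamini-Hochberg adjustment over all probes tested. A rank test over pairs, as in the study, has its exact form here in the same direction in all 6 pairs. The replicate number names the culture, and the deviations of the arrays that share it correlated at 0.449 to 0.912, against -0.439 to 0.390 for others. Each slide held 1 pair, so this correlation cannot tell a shared culture from a shared slide or scan batch.

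Named genes were, in each class, up to 2 probes per direction with the largest difference at an unadjusted p under 0.05, plus Ndufaf2, Atp5f1, the isoform pairs of complex IV, core subunits, genes whose probes disagree and 1 gene per direction of each other list. Some genes that this rule selects are not reported here. The members, lists and rules were chosen with earlier results of these data known. Of 101 gene names, 100 matched RefSeq, and 19 have a new symbol. Classes follow the gene names alone, and Cox4nb, Atp5s and Atp5sl, for example, match them without being classical subunits. No probe was named Cox7a1 or Cox6b1, and the mitochondrially encoded subunits were not analysed here. The fit was tested on simulated data. Alternatives were other scalings, filters, blocks, the scan batch and leaving out replicates.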

Additional observations from a re-analysis of the deposited data

Results flagged for a closer look

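Dixon's test was applied to 116 groups of arrays, of which chance alone sets apart about 5%, and it set 9 values apart. In ACE, replicate 3 was high for Ndufaf7 at A_44_P340316 (10.96, the next array 10.57), replicate 1 was high for Uqcrc1 (14.24 against 13.94) and for Uqcr11 at A_64_P057590 (15.53 against 15.12), and replicate 6 was low for Uqcr11 at A_64_P117688 (14.60 against 14.76). Uqcrq was high in replicate 1 in both control (9.32 against 8.18) and ACE (9.27 against 8.02). Atp5f1 was high in replicate 3 in both control (16.72 against 16.27) and ACE (16.71 against 16.27). The mean of the skeletal muscle list was high in ACE replicate 1 (8.84 against 7.48).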

How the results depend on the processing

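Without the replicate block, no member passed the unadjusted threshold (0 higher and 0 lower, against 0.185% and 0.155% of all probes). By the exact rank-sum test 0 were called higher and 0 lower (against 0.269% and 0.240%). In the other mitochondrial lists (41, 21, 24 and 12 probes in the main fit) 0 probes passed the unadjusted threshold in either direction. With the replicate as a random block, Cox8b passed the unadjusted limma threshold (-1.25). The 75th percentile shift moved the median of all probes to -0.034. Under it 1 of 125 members was higher at the unadjusted threshold (against 3.39% of all probes) and 14 of 125 lower (against 14.3%). In all pairs 1 of 125 was higher (against 2.47%). The medians were then -0.040 for complex IV assembly and -0.031 for complex V. With normexp, 6 of 125 members were higher (against 7.37% of all probes) and 19 lower (against 10.7%) at the unadjusted threshold, and 5 were higher in all pairs (against 4.95%). Without the filter on low signal 1 member was higher (against 5.26% of all probes) and 11 lower (against 7.28%). With the deposited log2 table, 2 of 125 members were higher (against 8.62% of all probes) and 9 of 125 lower (against 8.13%). In all pairs 7 of 125 were lower (against 5.65%). Of the other lists 11 probes were higher. In the scan batch of 3 pairs, 1 member was higher (against 5.71% of all probes), 4 were lower (against 8.19%) and 4 probes of the other lists were lower. After GC adjustment, chosen after seeing the data, 5 members were higher in all pairs (against 4.12%). Without pseudogene, paralogue and neighbour names, also chosen afterwards, 2 of 115 members were higher and 13 lower (against 6.90% and 9.73% of all probes).

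Leaving out 1 replicate at a time gave 1 to 5 members higher, against 4.88 to 6.98% of all probes. It gave 5 to 13 lower, against 6.93 to 10.8%, the latter without replicate 3, where 13 were lower. In the other lists (41, 21, 24 and 12 probes) 4 to 11 probes were higher and 3 to 7 lower, against these same shares. The number of members past the adjusted threshold was 0 throughout. Cox8b ranged from -1.68 to -0.64 and Cox6a2 from -0.39 to -0.14. The median ranged from -0.017 to -0.0056 for all members, from -0.0093 to 0.00060 for complex I subunits, from 0.0029 to 0.027 for complex I assembly factors, from -0.034 to -0.019 for complex II, from -0.042 to -0.028 for complex III, from -0.034 to -0.020 for complex IV subunits, from -0.011 to 0.020 for complex IV assembly and from -0.016 to -0.0030 for complex V. With 5 or fewer pairs no exact rank test over pairs can pass 0.05, so none was run. The cause of these shifts was not tested.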
